A study of Mus musculus with 6 samples.

Results

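The genes described here encode the factors that start and elongate protein synthesis on cytosolic ribosomes, together with the kinases and binding proteins that restrain them. They were chosen by name, as every row of the gene table whose symbol begins with Eif1 to Eif6 or with Eef1 or Eef2. This gave 70 of the 16880 genes listed, and the 65 with at least 60 reads summed over all libraries were analysed and tested. Of the other 5, Eif3j1 came closest to that minimum with 38.08 reads, followed by Eif4a3l1 with 27.08, Eef1akmt4-ece2 with 7.67, Eif4e1b with 3 and Eef1a2 with 1. The member with the fewest reads above the minimum was Eef1akmt3, with 87. The name rule also takes in genes that are not translation factors in the strict sense, such as Eif4a3, a helicase of the exon junction complex, and the methyltransferases that modify elongation factors, and these are described separately.

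The libraries came from ATDC5, a mouse chondrogenic cell line derived from a teratocarcinoma. Cells received IL-1β, an inflammatory cytokine, at 10 ng/mL (IL, n = 3), or IL-1β at 10 ng/mL plus the Fascin1 inhibitor NP-G2-044 at 10 μM (ILN, n = 3), for 24 h per the methods. All 6 libraries therefore carry IL-1β, a DMSO group was not analysed here, and every comparison sets the inhibitor plus cytokine against the cytokine alone. The titles name NP-G2-044, whereas the treatment label of the same samples gives NP-G2-047, and the methods speak of chondrocytes where the labels name the cell line.

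Totals ran from 16615831 to 17735850 reads per library. Counts of libraries within a group scattered by more than read sampling alone gives (1.54 to 2.39 times its variance, against 133 to 136 times between groups), so none was taken for a repeat of another. The biological coefficient of variation was 2.33%, small enough that even slight changes pass the test. The methods call the 3 libraries of a group biological replicates, while the labels do not say whether they came from separate cultures. The p-values measure the spread between these libraries. Of 10 chondrocyte markers, 6 had a row in the table and Sox9 alone reached a mean of 1 TPM, while Col2a1 lay between 0.2 and 0.24 TPM with IL and between 0.02 and 0.06 TPM with ILN. Summed fibroblast markers stood at 1105.7 to 1150.9 TPM with IL and at 337 to 351 TPM with ILN, nearly all of it Col1a2. Of 5 macrophage markers with a row, Cd68 alone exceeded 1 TPM, at 10.62 to 13.97 TPM with IL and 123.92 to 134.67 TPM with ILN, and Ptprc had no read. Summed endothelial markers (4 of 4 with a row) did not exceed 0.55 TPM and muscle markers (3 of 5) 0.17 TPM in any library. The part of these shifts in the results below was not tested.

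Translation begins when eIF2, loaded with GTP, brings the initiator tRNA to the small ribosomal subunit, while eIF3, eIF1 and eIF1A prepare that subunit and the cap-binding complex eIF4F delivers the mRNA. Each round leaves eIF2 with GDP, and eIF2B must exchange it for GTP. Stress kinases phosphorylate eIF2 and thereby block eIF2B, which lowers general synthesis but favours a few mRNAs with upstream open reading frames, such as that of ATF4. Cap binding has its own brake, the 4E-BP proteins, which hold eIF4E away from eIF4G unless mTORC1 phosphorylates them.

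Adding NP-G2-044 changed most of these genes by small amounts and in both directions. A gene is said here to have risen or fallen with the inhibitor when its adjusted p in edgeR's quasi-likelihood test (Benjamini-Hochberg adjustment) was below 0.05, and SE stands for the standard error of the change. By that rule 35 of the 65 members (53.8%) rose and 17 (26.2%) fell, beside 40.2% and 39.8% of the 11983 genes tested. Both directions together came to 80.0% of the members and to 80.0% of all tested genes. Counts by role and by pathway list below are to be read beside these shares. The median log2 fold change of the members was 0.11, against 0.00 over all tested genes, and its median size was 0.283 against 0.392. For 48 members the log2 fold change was below 0.5 in size. Another 11 lay between 0.5 and 1, and 2 between -0.5 and -1. The study's cutoffs also ask for a log2 fold change of more than 1 in either direction. Past both, 4 members (6.15%) were higher, against 6.48% of all tested genes, and none was lower, against 10.1%. In CPM, counts scaled to the library total, the groups did not overlap for 34 members that were higher with the inhibitor and for 17 that were lower, where 40.7% and 40.1% of all tested genes showed no overlap. In TPM, a measure of transcript abundance scaled for length, the members together made up 3.22% to 3.24% of all transcripts in the IL libraries and 3.41% to 3.47% in the ILN libraries. Without Eif4ebp1 and Eif1, which are both past the cutoffs, the summed TPM of the other 63 members overlapped between the groups. It was 31258 to 31493 with IL and 31163 to 31773 with ILN. Eef1a1 averaged 15894 TPM with IL and 15495 TPM with ILN, and Eef2 3577.1 and 3481.7 TPM. These genes dominate that sum, so its overlap says little of the less abundant members. As in any bulk RNA measurement, a change in the cells present and a change in RNA per cell cannot be told apart.

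**Figure D1:**
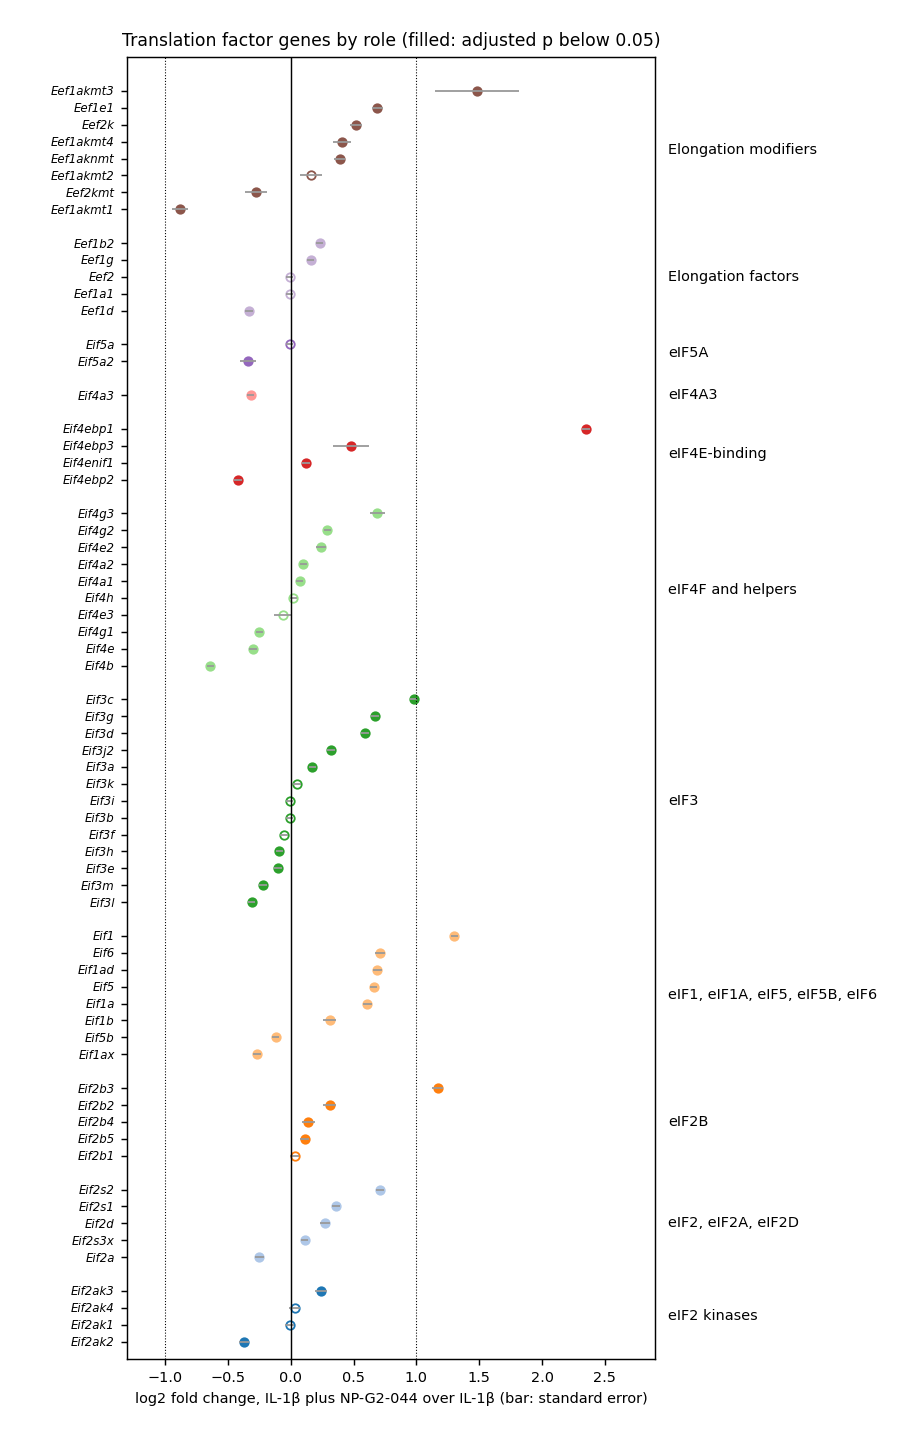
Log2 fold change of IL-1β plus NP-G2-044 relative to IL-1β for the 65 members, grouped by role, with standard errors as bars and dotted lines at -1 and 1. Filled points have an adjusted p below 0.05. Of the 4 points beyond 1, that of Eif4ebp1 lies farthest to the right at 2.35, and none lies below -1.

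The 4 members past both cutoffs belong to 4 different steps. Eif4ebp1, which encodes the eIF4E-binding protein 4E-BP1, had the largest change. Eif1, the factor that keeps the scanning subunit from stopping at a wrong start codon, came next among the abundant genes. Eif2b3 encodes the gamma subunit of eIF2B, and Eef1akmt3 a lysine methyltransferase of the elongation factor eEF1A.

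Eif4ebp1 (Entrez gene 13685, chr8:27260327-27275656, GRCm38) was at 272.65, 278.22 and 281.35 TPM in the IL libraries and at 1359.94, 1410.2 and 1400.78 TPM in the ILN libraries. The groups lie far apart, with a mean of 277 ± 4.41 TPM against 1390.3 ± 26.7 TPM (SD over 3 libraries). Its log2 fold change was 2.35 (SE 0.0304 and adjusted p = 1.44e-51 by edgeR), a 5.1-fold rise.

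Eif1 (Entrez gene 20918, chr11:100319949-100322099) was at 615.02, 626.13 and 637.86 TPM with IL and at 1504.94, 1477.19 and 1555.26 TPM with ILN, again without overlap. Its counts were not whole in any library, so part of its reads had been apportioned by estimate. It rose 2.46-fold, a log2 fold change of 1.30 (SE 0.0279 and adjusted p = 2.3e-41 by edgeR). With a mean of 1512.5 TPM it was the most abundant member outside the elongation factors in the ILN libraries.

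Eif2b3 (Entrez gene 108067, chr4:117019399-117086852) was at 47.11, 42.25 and 47.44 TPM with IL and at 104.38, 96.93 and 100.72 TPM with ILN. Every ILN library was above every IL library, and the log2 fold change was 1.17 (SE 0.0448 and adjusted p = 6.84e-30 by edgeR).

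Eef1akmt3 (Entrez gene 100504608, chr10:127032806-127042014) rests on few reads, 5, 9 and 8 in the IL libraries and 17, 22 and 26 in the ILN libraries. Its log2 fold change was 1.48 (SE 0.333 and adjusted p = 8.05e-05 by edgeR), and the 95% interval ran from 0.82 to 2.13. The ratio of pooled reads, scaled by the group totals, was 2.81 with an exact binomial interval (Clopper-Pearson) from 1.71 to 4.78, which covers counting error only. Its exons overlap those of Mettl1 on the opposite strand over 100 bases in GENCODE vM21. Mettl1 had 4387 reads over the 6 libraries and a log2 fold change of 0.92, and the sources do not say if strand was used in counting, so the part of Mettl1 reads in this result was not tested.

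**Figure D2:**
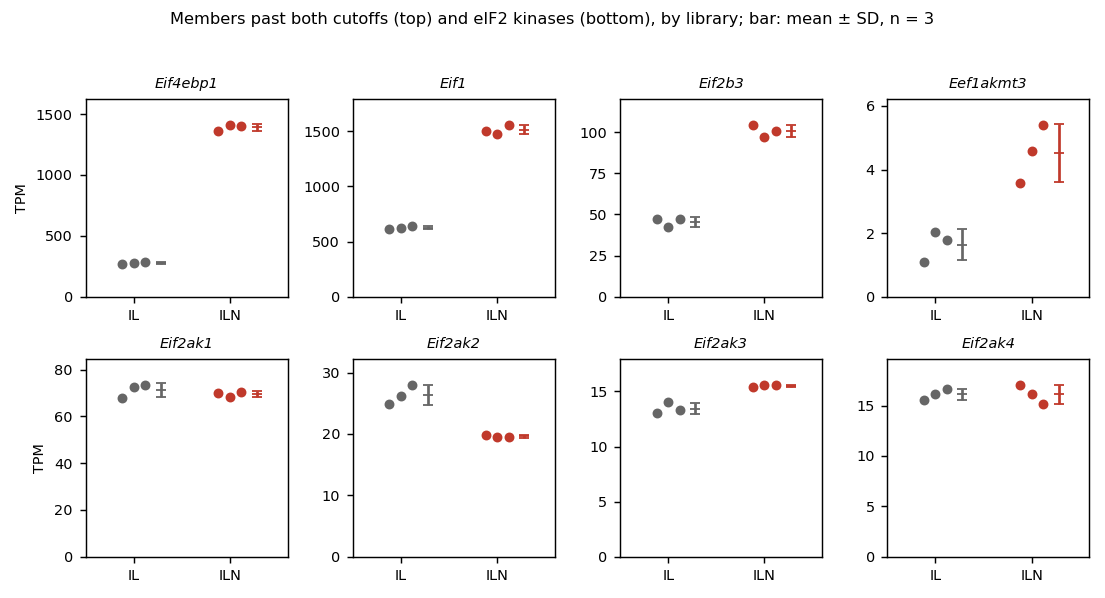
TPM of the 4 members past both cutoffs (top row) and of the 4 eIF2 kinases (bottom row) in each library, with IL for IL-1β and ILN for IL-1β plus NP-G2-044. Points are libraries and bars the mean ± SD of 3. In the top row the groups are separate in every panel, and in the bottom row they overlap for Eif2ak1 and Eif2ak4.

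Upstream of initiation stand the 4 kinases that phosphorylate eIF2, each tuned to a different stress. Their transcripts moved little: 1 rose, 1 fell and 2 did not pass the test. Eif2ak3 encodes PERK, the kinase of the endoplasmic reticulum that senses unfolded proteins. It was at 13.01, 14.04 and 13.28 TPM with IL and at 15.38, 15.58 and 15.57 TPM with ILN, a log2 fold change of 0.24 (SE 0.05 and adjusted p = 2.39e-05). The groups did not overlap, but the rise was 1.18-fold.

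Eif2ak2 encodes PKR, which responds to double-stranded RNA and is itself an interferon-induced gene. It fell from 24.85, 26.15 and 27.97 TPM to 19.78, 19.52 and 19.46 TPM, a log2 fold change of -0.37 (SE 0.0386 and adjusted p = 1.79e-12). All 3 ILN libraries were below all 3 IL libraries, and none of its counts was whole.

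Eif2ak1 encodes HRI, the kinase that senses low haem and mitochondrial stress, and it was the most abundant of the 4. It stood at 68, 72.64 and 73.41 TPM with IL and at 69.78, 68.22 and 70.56 TPM with ILN, with overlapping groups (log2 fold change -0.01, 95% interval -0.07 to 0.06, adjusted p = 0.895). Its exons overlap those of Aimp2 on the opposite strand over 487 bases, and Aimp2 had a log2 fold change of 0.11. Eif2ak4, which encodes the amino acid sensor GCN2, was at 15.54, 16.16 and 16.64 TPM with IL and at 17.04, 16.16 and 15.13 TPM with ILN (log2 fold change 0.03, 95% interval -0.06 to 0.12, adjusted p = 0.555).

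Among the subunits of eIF2 itself all 3 rose, though unequally. The beta subunit Eif2s2 went from 120.04, 120.43 and 123.53 TPM to 201.21, 192.48 and 190.61 TPM, a log2 fold change of 0.71 (SE 0.0298 and adjusted p = 3.45e-28). The alpha subunit Eif2s1, which carries the serine that the kinases phosphorylate, rose by a log2 fold change of 0.36 from a mean of 47.4 TPM to 59.3 TPM. With IL the most abundant of these genes was the gamma subunit Eif2s3x, which binds GTP and the tRNA. With ILN, Eif2s2 was higher than Eif2s3x in every library. Eif2s3x averaged 169 ± 2.93 TPM with IL and 179 ± 2.18 TPM with ILN (SD over 3 libraries). Its log2 fold change was 0.11 (SE 0.0274 and adjusted p = 2.78e-04). Groups were separate for each subunit. Of the factors that can deliver tRNA without eIF2, Eif2d rose by 0.27 and Eif2a changed by -0.25 on the log2 scale. Exons of Eif2d overlap those of Rassf5 on the opposite strand over 78 bases (log2 fold change of Rassf5 2.10), and exons of Eif2a overlap those of Serp1 over 72 bases (log2 fold change of Serp1 1.17).

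In the exchange factor eIF2B the subunits did not move together. Eif2b1, a part of its regulatory core, had a log2 fold change of 0.03 (95% interval -0.05 to 0.10, adjusted p = 0.541). Eif2b2, Eif2b4 and Eif2b5 rose by 0.31, 0.14 and 0.11, and Eif2b3 by 1.17. For Eif2b4 the groups overlapped, at 44.8, 40.02 and 40.92 TPM with IL and at 44.11, 44.67 and 45.43 TPM with ILN. Its call (adjusted p = 0.013 by edgeR) was lost with the DESeq2 Wald test, with limma on log2(TPM + 1) or log2(TPM + 0.1), and without IL replicate 2, IL replicate 3 or ILN replicate 3. Its exons overlap those of Snx17 on the opposite strand over 204 bases (11708 reads, log2 fold change of Snx17 0.26). With IL the most abundant subunit was Eif2b5, the catalytic epsilon subunit, and with ILN it was Eif2b3, at a mean of 101 TPM. Eif2b5 was at 76.97, 77.5 and 74.14 TPM with IL and at 78.29, 81.59 and 81.29 TPM with ILN. Its rise (adjusted p = 0.00407 by edgeR) did not pass with limma on log2(TPM + 1) (adjusted p = 0.0557). Relative to the mean TPM of the other 4 subunits, Eif2b3 stood at 0.814, 0.758 and 0.856 in the IL libraries and at 1.75, 1.6 and 1.67 in the ILN libraries. Its transcript was thus below the mean of its partners in all 3 IL libraries and above it in all 3 ILN libraries. An exact two-sided permutation test gave p = 0.1, the smallest that 3 against 3 allows. This ratio and those below were chosen after values were seen, so their p-values are no independent test.

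Start codon selection and subunit joining gave the role with the highest median among those with 5 or more members, 0.63 over 8 genes. Of these 6 rose and 2 fell, beside 40.2% and 39.8% of all tested genes. Eif5, the GTPase activator that works against Eif1 in start codon choice, rose from 116.71, 121.45 and 118.54 TPM to 187.46, 175.75 and 186.67 TPM, a log2 fold change of 0.66. Since Eif1 rose more, the ratio of Eif1 to Eif5 in TPM went from 5.27 ± 0.113 to 8.25 ± 0.2 (SD, n = 3 each, exact permutation p = 0.1). Eif1b, a close relative of Eif1, rose by 0.31 from a mean of 85.4 TPM and stayed far below Eif1 in level. Eif6, which keeps the large ribosomal subunit from joining too early, rose by 0.71 and Eif1ad by 0.69, with exons of Eif1ad overlapping those of Banf1 on the opposite strand over 428 bases (log2 fold change of Banf1 0.08). Eif5b, the GTPase that joins the subunits, changed by -0.12. Its counts were not whole in any library. Exons of Eif5b overlap those of Rev1 on the opposite strand over 1643 bases (log2 fold change of Rev1 -0.06).

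The paralogues for eIF1A went in opposite directions. Eif1a rose from 39.54, 38.98 and 41.86 TPM to 60.97, 58.69 and 60.71 TPM (log2 fold change 0.61, adjusted p = 1.86e-20), while Eif1ax fell from 61.46, 63.62 and 60.86 TPM to 50.18, 50.64 and 49.4 TPM (log2 fold change -0.27, adjusted p = 1.98e-11). Eif1a accordingly made up 38% to 40.8% of their summed TPM with IL and 53.7% to 55.1% with ILN, so the more abundant paralogue changed with the inhibitor. The genes are close copies, and reads could in principle be assigned to the wrong one, although all their deposited counts were whole numbers.

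The scaffold eIF3 has the most subunits, and 13 of them were analysed. With the inhibitor 5 rose and 4 fell, beside 40.2% and 39.8% of all tested genes, and 4 did not pass the test. The median log2 fold change of the 13 was -0.01. Eif3c, a core scaffold subunit, moved most, from 191.81, 198.15 and 190.88 TPM to 381.9, 369.38 and 366.05 TPM. Its log2 fold change of 0.98 (SE 0.0277 and adjusted p = 9.23e-36) lies just under the cutoff of 1 and stayed between 0.94 and 0.99 under every alternative tried. Eif3g and Eif3d followed, with 0.67 and 0.59. Eif3d carries a cap-binding surface of its own, and Eif3g an RNA-recognition domain. The other rises were those of Eif3j2 at 0.32 and Eif3a, the largest scaffold subunit, at 0.17.

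Against these, Eif3l fell from 359.82, 358.56 and 351.96 TPM to 283.1, 278.92 and 280.7 TPM (log2 fold change -0.31, adjusted p = 8.65e-15), and Eif3m changed by -0.22, Eif3e by -0.10 and Eif3h by -0.09. Eif3h was the most abundant subunit, at 773.09, 763.98 and 771.17 TPM with IL and at 710.49, 709.53 and 705.58 TPM with ILN. For Eif3b, Eif3f, Eif3i and Eif3k the groups overlapped in CPM, with log2 fold changes from -0.05 to 0.05. As TPM, the most abundant subunit exceeded the least abundant 9.99-fold to 10.3-fold in the IL libraries and 7.63-fold to 7.72-fold in the ILN libraries. Eif3c stood at 0.582 to 0.61 times the level of Eif3b with IL and at 1.17 to 1.2 times with ILN. The lowest subunit was Eif3j2, whose near-identical copy Eif3j1 received 38.08 reads. Counts of both were not whole in any library, so their reads were divided by the authors' counting, and their split is uncertain.

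**Figure D3:**
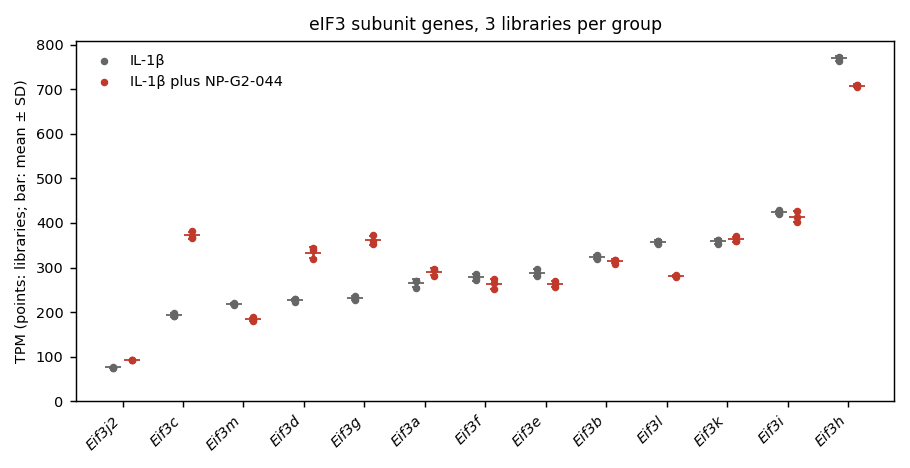
TPM of the 13 eIF3 subunit genes in each library, ordered by their mean with IL-1β. Points are libraries, grey for IL-1β and red for IL-1β plus NP-G2-044, and bars the mean ± SD of 3. The groups are farthest apart for Eif3c, at 194 against 372 TPM, and Eif3h is highest in both.

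In the cap-binding complex eIF4F the cap-binding protein and its main scaffold fell, while other scaffolds rose. Eif4e, the cap-binding protein, went from 151.73, 145.21 and 156.09 TPM to 118.14, 122.89 and 122.2 TPM (log2 fold change -0.30, SE 0.0338 and adjusted p = 1.48e-11). The scaffold Eif4g1 changed by -0.25, while its paralogue Eif4g2, which lacks the eIF4E-binding region, rose by 0.29. The ratio of Eif4g1 to Eif4g2 in TPM went from 1.68 ± 0.0121 to 1.16 ± 0.0319 (SD, n = 3 each, exact permutation p = 0.1). Eif4g3, the least abundant scaffold, rose from 5.42, 6.24 and 6.29 TPM to 9.6, 10.06 and 8.88 TPM, a log2 fold change of 0.69 (SE 0.0614 and adjusted p = 1.95e-14).

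The helicase Eif4a1 was the most abundant gene of this role, at 643.13, 649.49 and 650.4 TPM with IL and at 672.49, 675.54 and 642.99 TPM with ILN. Its log2 fold change of 0.07 had an adjusted p of 0.024 by edgeR, and in TPM its groups overlapped. The call was lost with limma on log2(TPM + 1) (0.03, adjusted p = 0.242) and without IL replicate 2, ILN replicate 1 or ILN replicate 2. Its paralogue Eif4a2 rose by 0.10. Among the cofactors that stimulate the helicase, Eif4b fell from 377.1, 376.05 and 373.35 TPM to 239.97, 233.1 and 233.61 TPM, the second largest fall of any member, with a log2 fold change of -0.64 (SE 0.0266 and adjusted p = 3.33e-28). The related Eif4h had 0.02 (95% interval -0.04 to 0.07, adjusted p = 0.554). The 2 cofactors changed places in level, with a ratio of Eif4b to Eif4h of 1.12 to 1.17 with IL and of 0.721 to 0.731 with ILN. Of the other cap-binding paralogues, Eif4e2 had a log2 fold change of 0.24 in counts, a call lost with limma on log2(TPM + 1), and Eif4e3 had -0.06 (95% interval -0.21 to 0.08, adjusted p = 0.422).

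The binding proteins that hold back eIF4E changed in different directions. Beside the rise of Eif4ebp1, Eif4ebp2 fell from 83.19, 86.08 and 91.99 TPM to 75.14, 65.64 and 59.17 TPM (log2 fold change -0.42, SE 0.0332 and adjusted p = 5.47e-15), and the low Eif4ebp3 rose by 0.48 from 52, 60 and 52 reads to 79, 83 and 79 reads. Eif4ebp1 made up 74.3% to 75.5% of their summed TPM with IL and 94.2% to 95.4% with ILN. Set against Eif4e, the summed TPM of the 3 binding proteins was 2.38, 2.55 and 2.43 times as high in the IL libraries and 12.2, 12.1 and 12 times as high in the ILN libraries (exact permutation p = 0.1). These are transcript ratios, and phosphorylation of the proteins was not measured here. Exons of Eif4ebp3 overlap those of AC115631.1 on the same strand over 501 bases, and the part of AC115631.1 reads in the Eif4ebp3 counts was not tested. Eif4enif1, which carries eIF4E into the nucleus, rose by 0.12.

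**Figure D4:**
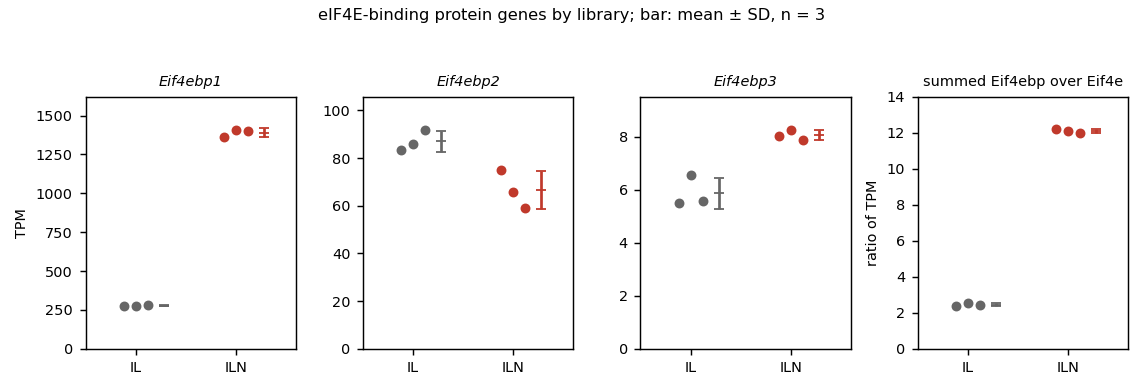
TPM of the 3 eIF4E-binding protein genes in each library and, at the right, their summed TPM divided by that of Eif4e. Points are libraries (IL, IL-1β and ILN, IL-1β plus NP-G2-044) and bars the mean ± SD of 3. Eif4ebp1 is higher and Eif4ebp2 lower with the inhibitor, and the ratio goes from a mean of 2.45 to 12.1.

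The elongation factors include the most abundant members, and 2 of the 5 analysed did not pass the test. Eef1a1, which brings aminoacyl-tRNA to the ribosome, was at 15911.5, 15887.3 and 15882.59 TPM with IL and at 15444.71, 15694.04 and 15345.35 TPM with ILN. Its log2 fold change in counts was -0.01 (95% interval -0.06 to 0.04, adjusted p = 0.809), with groups that overlapped in CPM though not in TPM. Eef1a1 has many processed pseudogenes and its counts were not whole, so some of its reads may belong elsewhere. Eef2, the translocase, stood at a mean of 3577.1 TPM with IL and 3481.7 TPM with ILN, likewise with -0.01 (95% interval -0.06 to 0.04, adjusted p = 0.817). Of the subunits that recharge eEF1A with GTP, Eef1b2 rose by 0.23 and Eef1g by 0.16, while Eef1d fell from 477.04, 472.81 and 456.83 TPM to 369.1, 372.68 and 354.62 TPM (log2 fold change -0.33, SE 0.031 and adjusted p = 4.77e-14). The muscle and nerve form Eef1a2 had 1 read in all.

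Eif5a, the factor that helps ribosomes through difficult peptide stretches, was at 705.54, 708.93 and 692.49 TPM with IL and at 686.38, 680.55 and 679.45 TPM with ILN (log2 fold change in counts -0.01, 95% interval -0.07 to 0.04, adjusted p = 0.674). The groups overlapped in CPM though not in TPM, and its counts were not whole. Its paralogue Eif5a2 fell from 8.28, 9.08 and 8.35 TPM to 6.7, 6.4 and 6.67 TPM (log2 fold change -0.34, SE 0.065 and adjusted p = 5.29e-06) and made up 0.932% to 1.26% of their sum in any library. Eif4a3, the exon junction helicase, fell from 297.76, 292.87 and 294.91 TPM to 232.04, 239.15 and 226.77 TPM (log2 fold change -0.32, adjusted p = 1.32e-13). Its copy Eif4a3l1 had 27.08 reads.

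Genes that regulate or modify the elongation factors had a median change of 0.464 in size on the log2 scale. The median size was 0.162 for the factors and 0.392 over all tested genes, and these differences were not tested. Of 8 analysed, 5 rose and 2 fell, beside 40.2% and 39.8% of all tested genes. Eef1akmt2 did not pass the test (log2 fold change 0.16, adjusted p = 0.0891). Eef2k, the kinase that phosphorylates and slows eEF2, rose from 8.78, 9.88 and 9.5 TPM to 13.57, 12.83 and 12.88 TPM, a log2 fold change of 0.52 (adjusted p = 7.13e-14). Eef1e1, also known as AIMP3, is a scaffold of the multi-synthetase complex. It was the most abundant of this role and rose from 154.05, 147.6 and 134.54 TPM to 233.76, 235.71 and 223.56 TPM, a log2 fold change of 0.69 (SE 0.0415 and adjusted p = 1.14e-18).

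The methyltransferases of eEF1A did not share a direction. Eef1akmt1 had the largest fall of all members, from 83.54, 86.42 and 86.56 TPM to 43.27, 44.52 and 49.51 TPM, a log2 fold change of -0.88 (SE 0.066 and adjusted p = 1.73e-17). Eef1aknmt rose by 0.39 and Eef1akmt4 by 0.41, in the direction of Eef1akmt3. Exons of Eef1akmt4 overlap those of Alg3 on the opposite strand over 143 bases, and Alg3 had a log2 fold change of 0.42. Gm49333, with 8 reads over the 6 libraries, overlaps Eef1akmt4 on the same strand over 495 bases. Eef2kmt, the lysine methyltransferase of eEF2, changed by -0.28, with exons that overlap those of Alg1 over 472 bases and a log2 fold change of Alg1 of 0.75.

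RefSeq promoter windows (GRCm38.p6) were found for 50 of the 65 members, and the 250 bases before each start were searched on both strands. Eif4ebp1, the member with the largest change, was among those without a window, so its promoter was not searched. The composite C/EBP-ATF element that ATF4 binds was searched as TGATGNAA. It was found in 2 of the 50 members (4%) and in 2.42% of the tested genes with a window. The full cAMP response element TGACGTCA was found in no member, against 3.1% of tested genes, and its core TGACG, which every full element contains, in 23 members (46%), against 31.2%. The E-box CACGTG, which MYC and related factors bind, was found in 13 members (26%), against 9.87% of tested genes. Members with an E-box had log2 fold changes from -0.34 to 0.52 with a median of 0.02, and the 37 without had changes from -0.64 to 1.30 with a median of 0.12. The GC box GGGCGG was found in 36 members (72%), against 64.7%. A match is a description of letters, and the windows say nothing of binding.

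The 2 matches to the composite element are shown with 30 bases each, the matched letters, here the reverse complement TTNCATCA, in capitals, since their members moved differently, Eef2k with a log2 fold change of 0.52 and Eif2s3x with 0.11. The Eef2k match lies before the farthest downstream of its 3 starts in the table.
Eef2k (chr7:120851094-120851123, plus strand): ctttctgcttgTTTCATCAagctcagcttg
Eif2s3x (chrX:94212729-94212758, minus strand): ttcgccatcatTTTCATCAggtctatgccg

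E-boxes of the cap-binding complex and its helpers are shown in the same way, because several parts of that complex carry one. Eif4a2, Eif4b and Eif4e2, of the same role and also searched, had none. Eif4e has 2 in the same window.
Eif4e (chr3:138527029-138527058, plus strand): tcgccagcgacCACGTGatcactttttttt
Eif4e (chr3:138527193-138527222, plus strand): gacacgtccgtCACGTGggcaggagccggc
Eif4g1 (chr16:20672662-20672691, plus strand): gcagtgggtgtCACGTGatggggcggagca
Eif4a1 (chr11:69672594-69672623, minus strand): gatcgcctccgCACGTGtaaaggtgctggg
Eif4h (chr5:134639487-134639516, minus strand): ggccgccgcacCACGTGggccgcagagcgc

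The 250 bases before the start are given for the members with a single start in the table that rose most, Eif1 and Eif3c, and for the one that fell most, Eif4b. Capitals mark the core TGACG or its reverse complement CGTCA and the CCAAT box (CCAAT or ATTGG), which 34% of members and 41.8% of tested genes carry. None of the 3 windows holds TGATGNAA or CACGTG, and that of Eif4b holds none of the letters searched in capitals.
Eif1 (chr11:100319699-100319948, plus strand): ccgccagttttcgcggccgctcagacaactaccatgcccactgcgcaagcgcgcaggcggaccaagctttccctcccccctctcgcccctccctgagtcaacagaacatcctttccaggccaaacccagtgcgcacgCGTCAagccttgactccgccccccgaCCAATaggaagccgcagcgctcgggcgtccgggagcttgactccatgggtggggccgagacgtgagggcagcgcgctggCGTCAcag
Eif3c (chr7:126566367-126566616, minus strand): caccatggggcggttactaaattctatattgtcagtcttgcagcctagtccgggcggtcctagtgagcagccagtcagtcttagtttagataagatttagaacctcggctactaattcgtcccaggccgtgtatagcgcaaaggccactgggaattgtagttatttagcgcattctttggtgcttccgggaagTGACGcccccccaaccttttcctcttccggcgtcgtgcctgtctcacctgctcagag
Eif4b (chr15:102073523-102073772, plus strand): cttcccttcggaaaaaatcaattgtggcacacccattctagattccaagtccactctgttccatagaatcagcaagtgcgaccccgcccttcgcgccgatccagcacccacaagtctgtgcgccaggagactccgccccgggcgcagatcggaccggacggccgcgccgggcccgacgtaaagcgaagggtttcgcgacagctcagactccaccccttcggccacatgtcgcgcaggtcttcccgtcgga

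Other genes of the same pathway, outside the name rule, were taken from a list of 54, of which Gspt2 was not analysed. Of the 53 tested, 34 rose and 10 fell, beside 40.2% and 39.8% of all tested genes. Past both cutoffs 7 were higher and 1 lower, beside 6.48% and 10.1%. The median log2 fold change was 0.34. The list was chosen with earlier results of these data known, so these counts describe its genes and do not test the pathway.

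The largest rises were those of Ddit3, which encodes the stress transcription factor CHOP, and of Ppp1r15a. Ppp1r15a encodes GADD34, the subunit that directs a phosphatase back to eIF2, and it went from 26.2, 25.09 and 25.31 TPM to 375.38, 391.97 and 385.77 TPM (log2 fold change 3.94, SE 0.0373 and adjusted p = 2.56e-57). Its constitutive relative Ppp1r15b rose by 0.28. Of the transcription factors whose mRNAs carry upstream reading frames, Atf4 rose from a mean of 176 ± 6.06 TPM to 841 ± 17.3 TPM, Ddit3 from 65.4 ± 3.95 TPM to 1225.7 ± 40.1 TPM and Atf5 from 15.2 ± 1.11 TPM to 41.4 ± 0.935 TPM (SD, n = 3 each). Their log2 fold changes were 2.30, 4.05 and 1.48. Impact, an inhibitor of GCN2, rose by 1.39, while the activator Gcn1 had 0.02 (adjusted p = 0.424). Phosphorylation of eIF2 was not measured here.

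On the mTORC1 side, 8 of 16 genes rose and 6 fell, beside 40.2% and 39.8% of all tested genes. Sesn2, which encodes the leucine sensor Sestrin2 that restrains mTORC1, rose from 6.01, 6.64 and 7.44 TPM to 52.94, 54.41 and 54.01 TPM (log2 fold change 3.04, adjusted p = 2.21e-43). Deptor, which encodes another inhibitor of mTOR, fell from 2.73, 2.92 and 2.4 TPM to 0.33, 0.24 and 0.29 TPM (log2 fold change -3.17, adjusted p = 1.55e-27). With limma on log2(TPM + 1) its change was -1.52. Mtor and Tsc2 did not pass the test, at -0.03 and -0.04. The kinases that phosphorylate eIF4E went apart, with Mknk1 up by 0.99 and Mknk2 changed by -0.52.

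Genes that modify or assist the members' proteins were examined last. Dhps and Dohh make hypusine, the modified lysine that eIF5A needs, and rose by 1.06 and 0.72 with Eif5a itself at -0.01. Dhps was at 55.9 ± 1.5 TPM with IL and at 114 ± 8.03 TPM with ILN (SD, n = 3 each). Of 7 genes that make or assist in making diphthamide, the modified residue of eEF2, 6 rose by 0.32 to 0.79, and Dnajc24 had -0.17 (adjusted p = 0.0914). Poly(A)-binding Pabpc4 rose by 0.81 and the far more abundant Pabpc1 by 0.17. In termination and recycling 4 of 5 rose, beside 40.2% of all tested genes, among them the release factor Etf1 by 0.58. Gspt1 changed by -0.16. Of the reinitiation pair, Denr rose by 0.67 and Mcts1 changed by -0.24. The mitochondrial factors, which serve a separate ribosome, gave 3 rises, 2 falls and 4 genes that did not pass the test, with a median of 0.07.

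**Figure D5:**
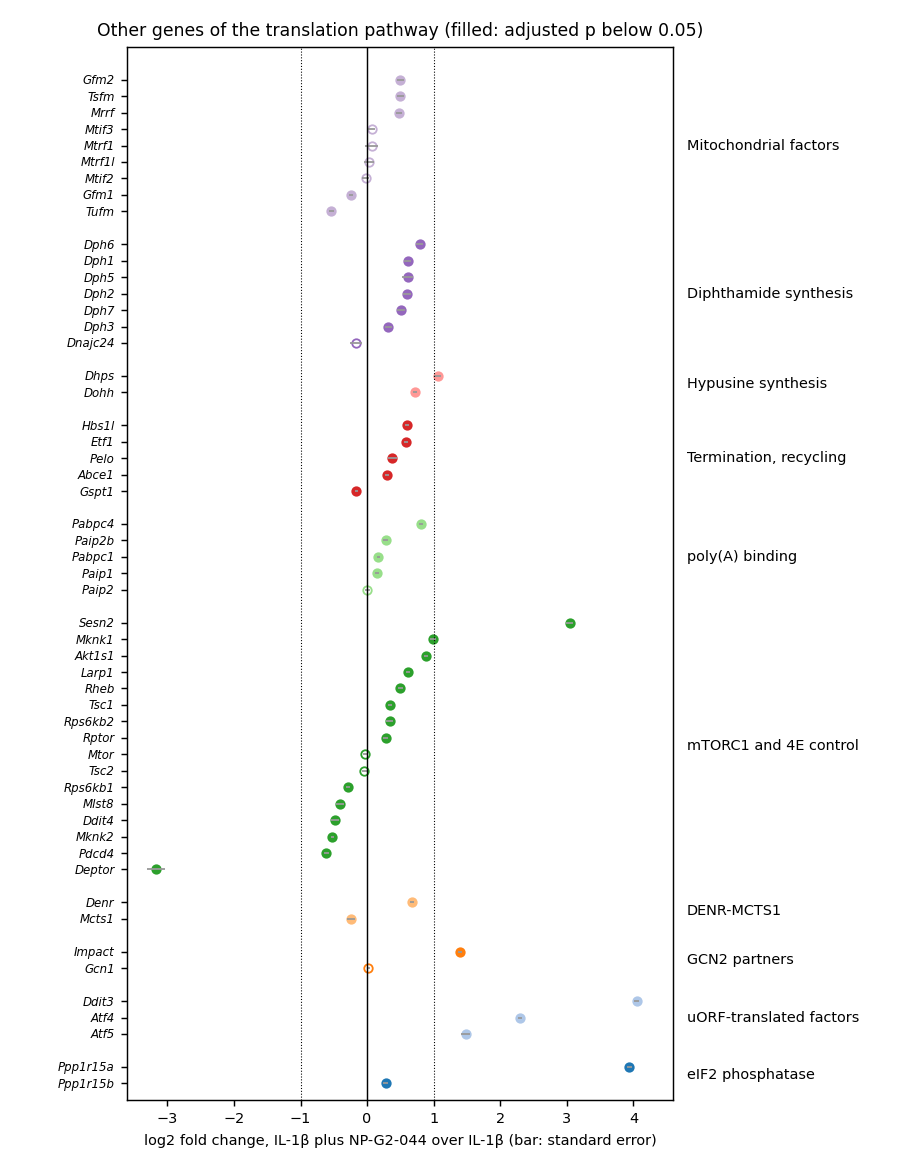
Log2 fold change of IL-1β plus NP-G2-044 relative to IL-1β for the 53 other pathway genes, by list, with standard errors as bars and dotted lines at -1 and 1. Filled points have an adjusted p below 0.05. Ddit3 and Ppp1r15a lie farthest to the right, at 4.05 and 3.94, and Deptor is alone below -1, at -3.17 (-1.52 with limma on log2(TPM + 1)).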

How the data were processed

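RNA of 6 ATDC5 libraries, 3 per group, was sequenced by BGI. The submitters' processing notes name cutadapt, HISAT2 2.0, StringTie and the mm10 build, and the labels a TruSeq kit. The annotation, counting tool and strand setting were not stated in the sources. The deposited expected counts are the authors' estimated reads per gene, not normalized, and 10.2% to 11.1% of values per library were not whole. The deposited TPM were scaled by the authors for transcript length and library. The deposited FPKM and the authors' means were not used.

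Counts were rounded, filtered with filterByExpr (minimum count 10), normalized with TMM (factors 0.9975 to 1.002) and tested by edgeR 4.0.16 (quasi-likelihood, R 4.3.3), without covariates, with Benjamini-Hochberg adjustment over the 11983 genes that passed. The standard error is the log2 fold change over the square root of F, and 95% intervals are 1.96 standard errors either side. Steps were tested on simulated counts. Members and lists were chosen with earlier results of these data known. Named in full were members past both cutoffs, the eIF2 kinases and pathway genes past both cutoffs. Also named were the most abundant member of each role, by mean TPM over all libraries, and the most changed. Other members with values per library, the ratios and the printed promoters were chosen after values were seen. Alternatives were DESeq2 1.42.0 and its size factors, library size alone, no filter, the replicate block, limma 3.58.1 on log2(TPM + 1) and log2(TPM + 0.1), and each library left out. Exon overlaps came from GENCODE vM21 and gene coordinates from RefSeq, both on GRCm38, the assembly that mm10 denotes.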

Additional observations from a re-analysis of the deposited data

How the results depend on the processing

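Counts of members and of other pathway genes, by direction and by either rule, stayed within 1.5 times of the reported counts under all the alternatives tried. No member with an adjusted p below 0.05 changed direction in any of them. Calls were lost for at most 4 members at a time, those being Eif2b5, Eif4a1, Eif2b4 and Eif4e2 with limma on log2(TPM + 1) or log2(TPM + 0.1). DESeq2 lost Eif2b4 (its size factors alone lost none), and leaving out a library lost at most Eif4a1 and Eif2b4. Among named genes, values near 0 changed sign, all with an adjusted p of 0.779 or more. Eif2ak1 ranged from -0.03 to 0.01 with each library left out and was at 0.01 without IL replicate 3 or ILN replicate 2, Eif2ak4 at -0.00 with either limma fit and without ILN replicate 1, and Eef1a1, from -0.02 to 0.00, at 0.00 without IL replicate 1 or ILN replicate 1. Low depth limits Eef1akmt3, whose log2 fold change lay between 1.26 and 1.65 with each library left out and went down to 1.07 with limma on log2(TPM + 1). Deptor, also low, went to -1.52 in that fit, where the pseudocount draws low values together.

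Deviations of same-numbered libraries correlated at -0.0934, -0.0236 and 0.0259, and those of differently numbered libraries at -0.107 to 0.129. Equal replicate numbers thus showed no visible pairing, but such small values cannot tell whether samples were paired. With the replicate number as a block, 34 members rose and 17 fell, 4 and 0 of them past both cutoffs, and 1 member, Eif4a1, lost its call (log2 fold change 0.07, adjusted p = 0.05).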
